A study of Mus musculus with 6 samples.

Results

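The Krüppel-like factors (KLFs) examined here are 10 zinc-finger transcription factors with known or proposed roles in adipose tissue, *Klf2*, *Klf3*, *Klf4*, *Klf5*, *Klf6*, *Klf7*, *Klf9*, *Klf11*, *Klf13* and *Klf15*. They were listed by symbol, and all 10 were found among the 55401 genes of the RNA-seq count files of mouse subcutaneous white adipose tissue (scWAT). The study asked how loss of the Hippo pathway effectors YAP and TAZ in fat cells alters this tissue. Libraries came from 3 control mice (labelled WT in the deposit and called YT-FF by the study, which uses that name for mice with both genes floxed, fl/fl, and no Cre) and 3 YT-AKO mice, which carry both floxed genes (fl/fl) together with *Adipoq*-Cre, all male, 8 weeks old and housed at room temperature. The adiponectin promoter drives Cre in mature adipocytes, so other cells of the tissue keep both genes and stay in the bulk RNA.

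KLFs bind GC-rich and CACCC sequences through C-terminal zinc fingers, and their N-terminal parts recruit coactivators or corepressors. In fat cell differentiation, KLF4, KLF5, KLF6, KLF9, KLF13 and KLF15 are known as activators at different steps, while KLF2, KLF3 and KLF7 are known as inhibitors. Several of them, among them KLF2, KLF4 and KLF6, are also immediate early genes that respond to stress and shear, and KLF2 is a regulator of endothelial cells and T cells.

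The libraries held 17740987 to 21838493 counted fragments. *Yap1*, the targeted *Yap* gene, was at 69.1, 57.1 and 66.7 CPM (counts of a gene scaled to a common library size) in YT-FF and at 37.7, 29.0 and 31.3 CPM in YT-AKO (log2 fold change −0.98, adjusted p = 0.0179). *Wwtr1*, which encodes TAZ, went against the label, at 77.5, 76.0 and 98.8 CPM in YT-FF and 175, 133 and 161 CPM in YT-AKO (log2 fold change 0.89, adjusted p = 0.0220). By immunoblot, the study reported less YAP and TAZ protein in scWAT of YT-AKO mice. Gene counts do not separate deleted exons from the rest of a gene, and the second group is therefore called the libraries labelled YT-AKO. Adipocyte markers, *Adipoq* included, were present in every library (summed 23101 to 32049 CPM in YT-FF and 39154 to 56845 CPM in the libraries labelled YT-AKO), with 4 of 10 called higher. Of the other cell types the tissue could hold, macrophage markers summed to 1340 to 1510 against 2028 to 2748 CPM (3 of 10 higher), fibroblast and progenitor markers to 5281 to 6573 against 6572 to 9872 CPM (2 higher and 1 lower of 10), and B cell markers to 1009 to 1166 against 597 to 959 CPM (4 of 7 lower). Endothelial markers summed to 898 to 978 against 859 to 1271 CPM (1 of 10 lower), T cell markers to 418 to 640 against 370 to 827 CPM (1 of 8 lower), and smooth muscle and pericyte markers to 489 to 549 against 533 to 633 CPM (1 of 8 higher). Skeletal muscle markers reached 3141 CPM in YT-AKO 1 and 119 to 450 CPM in the other 5 libraries (1 of 8 higher), and epithelial markers summed to 4.02 to 5.81 CPM over all 6 libraries, with 1 of 7 at 0 throughout. The library YT-AKO 2 stood apart. It had the lowest CPM of all 6 libraries for 8 of the 10 KLFs and the highest for *Klf2*, so the fold change of each KLF is also given without it.

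Of the 10 KLFs, *Klf15* was the member called higher in the libraries labelled YT-AKO, and *Klf3* and *Klf7* were the members called lower (edgeR quasi-likelihood test, Benjamini-Hochberg adjusted p under 0.05 over 16807 tested genes). All 10 had passed the filter on low counts. That makes 1 of 10 higher beside 12.6% of all tested genes, and 2 of 10 lower beside 9.01%. The CPM values of the groups did not overlap for 1 member that was higher (*Klf15*, beside 25.7% of all tested genes) and for 3 that were lower (*Klf3*, *Klf7* and *Klf13*, beside 25.8%). The median log2 fold change of the 10 was −0.14, against −0.021 over all tested genes. In bulk tissue, fewer cells of a type and less RNA per cell cannot be told apart for any of these changes.

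**Figure D1:**
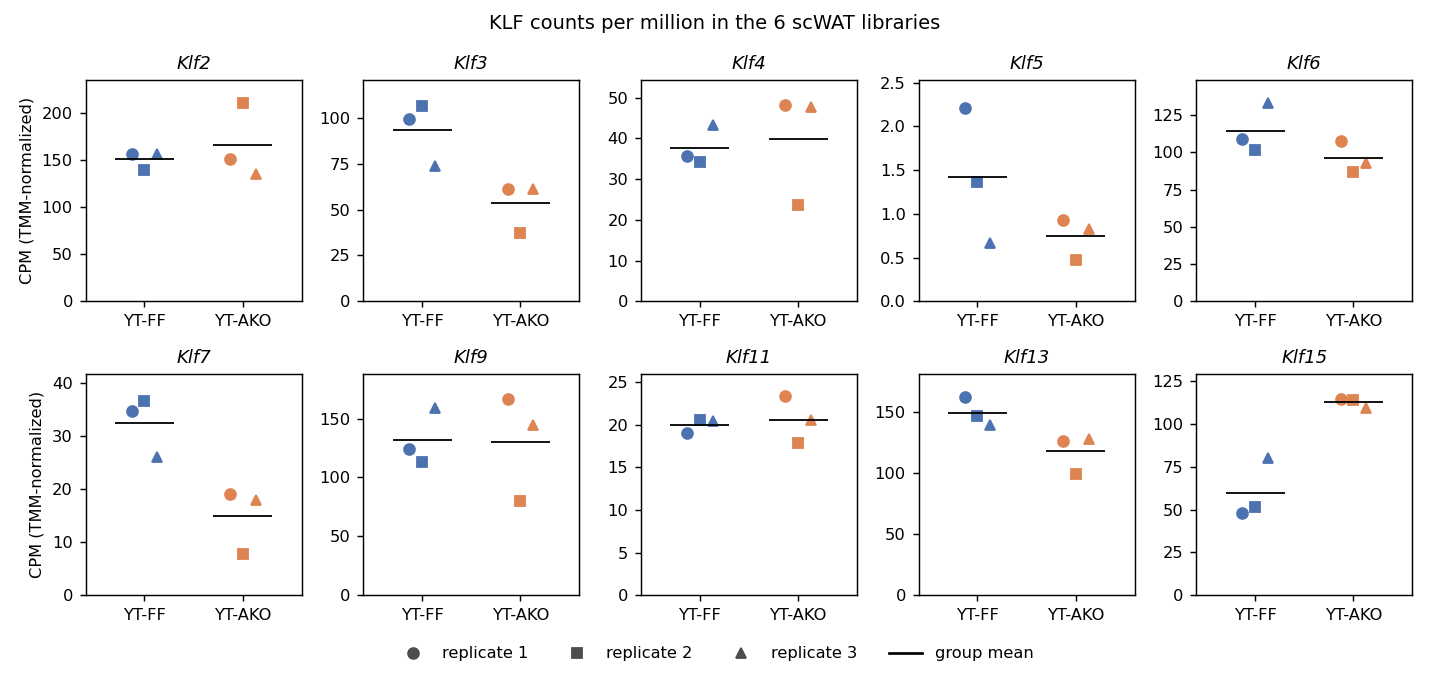
CPM (TMM-scaled, linear axes from 0) of the 10 KLFs, 1 panel per gene, with 1 point per library, 3 YT-FF on the left and 3 YT-AKO on the right, marked by replicate number, and a line at each group mean. All 3 YT-AKO points lie above all YT-FF points for *Klf15* and below them for *Klf3*, *Klf7* and *Klf13*.

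*Klf15* (ENSMUSG00000030087, chr6:90462576-90475238, mm10, plus strand) encodes a glucocorticoid-responsive activator of amino acid and lipid metabolism genes. It was at 48.0, 51.3 and 80.1 CPM in YT-FF and at 114, 114 and 110 CPM in the libraries labelled YT-AKO. Every library labelled YT-AKO lay above the highest YT-FF library, and the 3 lay close together on this TMM scale. The TMM factor of YT-AKO 2 was 0.777, against 0.954 and 0.955 for YT-AKO 1 and 3. Before scaling, the 3 libraries held 1969, 1932 and 1856 *Klf15* counts among 18059038, 21838493 and 17740987 in total. The mean rose from 59.8 ± 17.6 to 113 ± 2.63 CPM (SD, n = 3), which is 1.89-fold (log2 fold change 0.92, SE 0.217, adjusted p = 0.0286). The call was lost on library totals alone (log2 fold change 0.60, adjusted p = 0.0728). It was also lost without YT-FF 1 (0.78, adjusted p = 0.129) or YT-FF 2 (0.81, adjusted p = 0.135), but those fits called 0 and 2 genes of all tested (4665 and 4507 at an unadjusted p under 0.05), so the loss there says nothing about a single gene. Without YT-AKO 2 the log2 fold change was 0.91 (adjusted p = 0.0153). Summed adipocyte markers were also higher in all 3 libraries labelled YT-AKO (39154, 56845 and 48029 CPM), but did not stay as close together as *Klf15*. Of the 10 markers 4 were called higher (*Fabp4*, *Lipe*, *Pnpla2* and *Car3*), while *Adipoq*, *Plin1*, *Cidec* and *Lep* overlapped between the groups. The part of adipocytes in the change was not tested.

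*Klf3* (ENSMUSG00000029178, chr5:64803388-64832901, mm10, plus strand) encodes a repressor that works through CtBP corepressors and is known to restrain adipogenesis. Its values were 99.5, 106 and 73.9 CPM in YT-FF and 61.3, 37.4 and 61.3 CPM in the libraries labelled YT-AKO, with YT-AKO 2 the lowest and no overlap. It fell from 93.3 ± 17.1 to 53.4 ± 13.8 CPM, 1.75-fold (log2 fold change −0.81, SE 0.241, adjusted p = 0.0491).

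*Klf7* (ENSMUSG00000025959, chr1:64029447-64122282, mm10, minus strand) encodes a factor known from neurons and as an inhibitor of adipocyte differentiation. It was at 34.8, 36.6 and 26.2 CPM in YT-FF and at 19.1, 7.73 and 18.0 CPM in the libraries labelled YT-AKO, where YT-AKO 2 was again the lowest. The mean fell from 32.5 ± 5.59 to 14.9 ± 6.25 CPM, 2.18-fold (log2 fold change −1.12, SE 0.335, adjusted p = 0.0489). Without YT-AKO 2 the log2 fold changes were −0.82 for *Klf7* (adjusted p = 0.0102) and −0.61 for *Klf3* (adjusted p = 0.0292), so the calls did not need that library. Apart from the fits without YT-FF 1 or YT-FF 2, the *Klf3* call was lost without YT-FF 3 (−0.94, adjusted p = 0.0678), YT-AKO 1 (−0.91, adjusted p = 0.0558) or YT-AKO 3 (−0.91, adjusted p = 0.0636). The *Klf7* call was lost without YT-FF 3 (−1.25, adjusted p = 0.0826) or YT-AKO 3 (−1.28, adjusted p = 0.0639). In each of these fits the fold change was at least as large as with all 6 libraries. Summed B cell markers were at 638, 959 and 597 CPM in the libraries labelled YT-AKO, below the 1009 to 1166 CPM of YT-FF. Of the 7 markers 4 were called lower, but *Cd79a* (241 CPM) and *Cd79b* (284 CPM) were highest in YT-AKO 2. The part of B cells in either change was not tested. A stretch of 3.59% of the exon bases of *Klf3* lies under the antisense gene *Gm20033* and 0.0492% of those of *Klf7* under *Gm13748*, and unstranded counting cannot tell their reads apart.

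The DNA upstream of these 3 genes is shown because KLF genes are known to be regulated through CACCC elements that KLFs themselves bind. The stretches are from RefSeq (GRCm38.p6), written 5′ to 3′ on the strand of the gene, and capitals mark CACCC or its reverse complement GGGTG. They end where exons of the gene itself begin, so the *Klf15* stretch runs for 250 bases up to its start (chr6:90462326-90462575, plus strand), the *Klf3* stretch for 117 bases (chr5:64803271-64803387, plus strand) and the *Klf7* stretch, which lies inside the gene's span between annotated first exons, for 148 bases (chr1:64121492-64121639, minus strand). Antisense exons of *Gm20033* overlap the *Klf3* stretch.
Klf15: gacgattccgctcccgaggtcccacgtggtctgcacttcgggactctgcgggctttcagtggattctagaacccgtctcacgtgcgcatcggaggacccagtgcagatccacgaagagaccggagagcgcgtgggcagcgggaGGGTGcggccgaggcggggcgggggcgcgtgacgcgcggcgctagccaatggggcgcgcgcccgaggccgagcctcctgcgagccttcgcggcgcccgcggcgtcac
Klf3: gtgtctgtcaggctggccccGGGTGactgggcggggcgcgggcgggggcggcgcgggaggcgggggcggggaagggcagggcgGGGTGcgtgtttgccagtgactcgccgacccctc
Klf7: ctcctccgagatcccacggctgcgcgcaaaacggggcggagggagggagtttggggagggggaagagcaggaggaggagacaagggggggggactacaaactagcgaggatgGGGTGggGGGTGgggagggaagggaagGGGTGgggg

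In the full windows of 250 bases before the start, *Klf3* held 5 CACCC matches on both strands together, *Klf7* 3, and *Klf15*, *Klf13*, *Klf9* and *Klf2* 1 each. Of the *Klf3* window, 133 bases lie in annotated exons of *Klf3* itself, and the stretch shown before them holds 2 of the 5 matches. CACCC was in 6 of the 9 KLF windows, beside 52.0% of 32851 RefSeq promoters of the same length, and 0.667% of those held 5 or more. GGGCGG, a GC box whose matches can share bases with those of CACCC, was in 8 of 9 windows beside 32.7% of all. CCAAT was in 5 of 9 beside 33.8%, with 4 matches in *Klf6* and 3 in *Klf9*. The TEAD motif CATTCC was in 0 of 9 beside 12.6%, and the cAMP response element TGACGTCA in 0 of 9 beside 1.55%. The KLF windows had a GC content of 59.2% to 78.4%, beside a median of 52.4% over all promoters. These matches are letters in a window and describe no binding.

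*Klf13* and the remaining members were not called. *Klf13* (ENSMUSG00000052040, chr7:63886351-63938915, mm10, minus strand), an activator in adipogenesis and T cells, was at 162, 147 and 139 CPM in YT-FF and at 126, 99.7 and 128 CPM in the libraries labelled YT-AKO. Its groups did not overlap, and its log2 fold change was −0.34 (SE 0.165, adjusted p = 0.158). The 95% interval of that log2 fold change ran from −0.72 to 0.04, and without YT-AKO 2 the value was −0.24 (adjusted p = 0.172).

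The 3 KLFs whose groups separated downward were the 3 longest of the 10. The summed exons of *Klf3* span 11243 bases, longer than 94.1% of tested genes, those of *Klf7* 8131 bases (85.4%) and those of *Klf13* 7531 bases (82.8%), whereas *Klf15* has 2791 bases (33.8%) and *Klf2* 1847 bases (19.3%). Over the 16807 genes tested (genes being no independent replicates), log2 fold change and exon length had a Spearman rho of −0.376, and of −0.283 without YT-AKO 2. With a correction for gene length in the fit, rho was −0.0710, and the log2 fold change was 0.76 for *Klf15* (adjusted p = 0.0465), −0.81 for *Klf7* (adjusted p = 0.0766), −0.34 for *Klf3* (adjusted p = 0.186) and −0.029 for *Klf13* (adjusted p = 0.890). The call of *Klf15* was kept under that correction and those of *Klf3* and *Klf7* were not. With YT-AKO 2 also left out, *Klf15* (0.77, adjusted p = 0.0319) and *Klf7* (−0.56, adjusted p = 0.0326) were called, and *Klf3* was at −0.24 (adjusted p = 0.257).

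**Figure D2:**
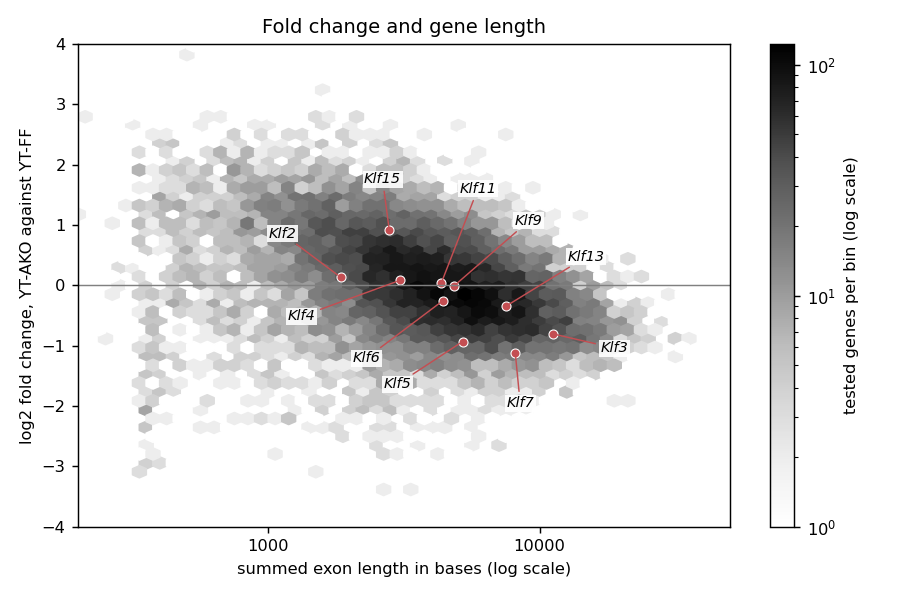
Log2 fold change (YT-AKO against YT-FF) of the tested genes against summed exon length in bases (log axis). Grey bins count genes, and red points are the 10 KLFs. *Klf3*, *Klf7* and *Klf13* lie at the long end below 0, and *Klf15* above 0 among genes of middle length. A few genes outside the axis limits are not drawn.

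*Klf2* (ENSMUSG00000055148, chr8:72319033-72321656) was at 156, 139 and 156 CPM in YT-FF and at 151, 210 and 135 CPM in the libraries labelled YT-AKO. The groups overlapped, with YT-AKO 2 the highest library of all. Its log2 fold change was 0.13 (SE 0.199, adjusted p = 0.635, 95% interval −0.33 to 0.59), and the sign turned without YT-AKO 2 (−0.076), on library totals (−0.22) and with the length correction (−0.22). In YT-AKO 2 the summed endothelial and T cell markers were also at their highest (1271 and 827 CPM), but single markers disagreed. Of the endothelial genes, *Cldn5* (454 against 53.9 to 111 CPM elsewhere), *Eng*, *Vwf* and *Emcn* were highest there. *Pecam1*, *Cdh5* and *Kdr*, at 190, 66.9 and 49.2 CPM, lay below every YT-FF library. Of the T cell genes, *Cd3d* (165 against 31.5 to 35.8 CPM elsewhere), *Cd3g*, *Trac*, *Lck* and *Cd2* were highest there, and *Cd4* (38.3 CPM) was lowest. The part of these cells was not tested.

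*Klf4* (ENSMUSG00000003032, chr4:55527143-55532466), an early activator of the adipogenic program, was at 35.6, 34.3 and 43.2 CPM in YT-FF and at 48.2, 23.7 and 47.7 CPM in the libraries labelled YT-AKO. *Klf9* (ENSMUSG00000033863, chr19:23141226-23168134), a glucocorticoid- and thyroid hormone-responsive activator, was at 124, 113 and 159 CPM and at 167, 80.4 and 144 CPM. In both genes YT-AKO 2 was the lowest of all 6 libraries, and the other libraries labelled YT-AKO lay within or above the YT-FF range. The log2 fold changes were 0.082 (95% interval −0.56 to 0.72, adjusted p = 0.842) for *Klf4* and −0.015 (−0.67 to 0.63, adjusted p = 0.972) for *Klf9*, and each changed sign with the length correction (−0.022 and 0.086). Without YT-AKO 2, *Klf4* was at 0.35 (adjusted p = 0.0759) and *Klf9* at 0.24.

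*Klf6* (ENSMUSG00000000078, chr13:5861482-5870394), an activator in adipocytes and many other cells, was at 109, 101 and 133 CPM in YT-FF and at 108, 86.7 and 93.1 CPM in the libraries labelled YT-AKO, and the groups overlapped (log2 fold change −0.26, 95% interval −0.65 to 0.14, adjusted p = 0.288). *Klf11* (ENSMUSG00000020653, chr12:24651274-24662789), known as a PPARγ partner in human adipocytes, varied least in YT-FF relative to its mean, at 19.1, 20.5 and 20.5 CPM, against 23.4, 17.9 and 20.5 CPM (0.040, −0.35 to 0.43, adjusted p = 0.876), and turned to −0.27 on library totals alone. *Klf5* (ENSMUSG00000005148, chr14:99298691-99315036), induced early in adipogenesis by C/EBPs, was the scarcest, counted 52, 31 and 13 times in YT-FF against 16, 8 and 14 times in those labelled YT-AKO. That is 1.42 ± 0.775 against 0.743 ± 0.241 CPM (log2 fold change −0.93, adjusted p = 0.238), with a 95% interval from −2.21 to 0.35, the widest of the 10. Without YT-AKO 2 the log2 fold changes were −0.19 for *Klf6*, 0.13 for *Klf11* and −0.70 for *Klf5*, none of them called.

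**Figure D3:**
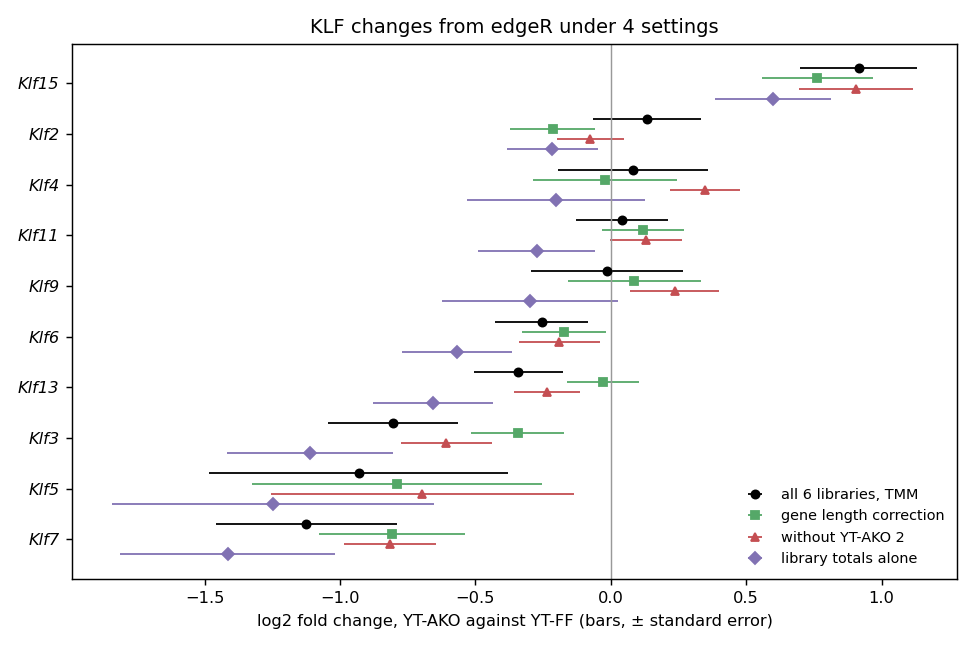
Log2 fold change of each KLF (YT-AKO against YT-FF) with a standard error derived from the edgeR test, under the main fit and 3 other settings shown by marker. *Klf15* stays above 0 and *Klf7* and *Klf3* below 0 in all 4 settings.

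Levels of different genes were compared per length, as TPM (counts divided by exon length and scaled to a common sum). In YT-FF, *Klf2* was the most abundant at 309 ± 14.5 TPM, and *Klf9* (104 ± 13.7), *Klf6* (98.6 ± 9.41), *Klf15* (80.7 ± 20.0) and *Klf13* (75.5 ± 8.14 TPM) followed, each overlapping its neighbour in range. *Klf4* at 46.8 ± 3.72 and *Klf3* at 31.7 ± 7.10 TPM stood apart from their neighbours, *Klf11* (17.5 ± 0.994) and *Klf7* (15.3 ± 3.25) overlapped, and *Klf5* came last at 1.05 ± 0.587 TPM. In the libraries labelled YT-AKO, *Klf15* stood second at 97.6 ± 22.9 TPM after *Klf2* at 209 ± 16.6 TPM. From there to *Klf11*, through *Klf9* (69.1 ± 35.4), *Klf6* (53.5 ± 17.3), *Klf13* (38.7 ± 13.4), *Klf4* (33.4 ± 17.1), *Klf3* (12 ± 5.31) and *Klf11* itself (11.7 ± 4.03 TPM), every member overlapped the next, and *Klf7* (4.74 ± 2.67) and *Klf5* (0.363 ± 0.180 TPM) lay apart. The 10 KLFs together summed to 783, 750 and 807 TPM in YT-FF and to 635, 386 and 568 TPM in the libraries labelled YT-AKO. In CPM, which is TMM-scaled and not divided by length, they summed to 751 to 832 and 678 to 819. In TPM, *Klf15* ranged from 66.1 to 103 in YT-FF and from 71.5 to 114 in the libraries labelled YT-AKO, which overlap. As RPKM (TMM-scaled CPM per kilobase of exon), *Klf15* was at 21.4 ± 6.32 in YT-FF and 40.4 ± 0.942 in the libraries labelled YT-AKO. *Klf2* was at 81.5 ± 5.41 and 89.5 ± 21.3 RPKM. Differences between the groups in TPM therefore depend on the scaling to a common sum.

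**Figure D4:**
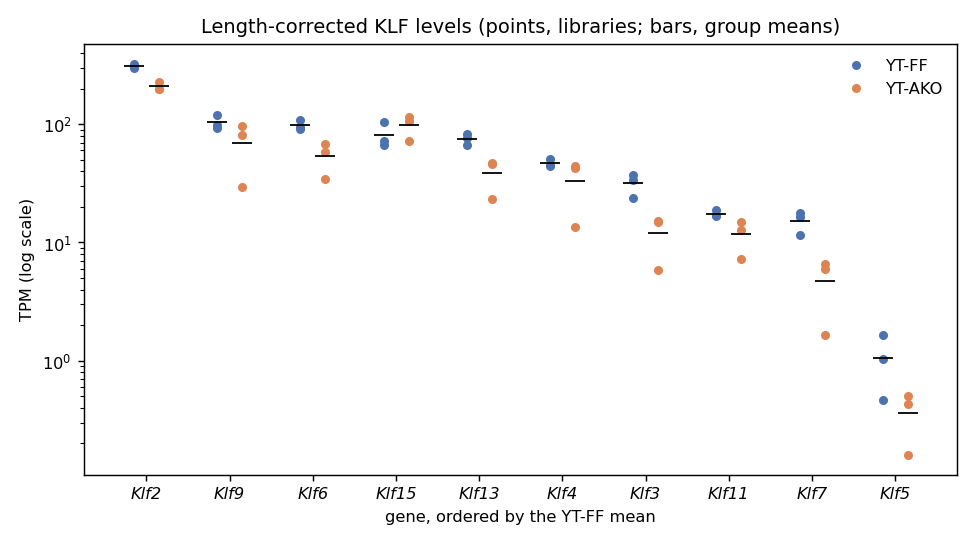
TPM of the 10 KLFs on a log axis, ordered by their mean in YT-FF, with 1 point per library, 3 per group, and a line at each group mean. *Klf2* is highest and *Klf5* lowest in both groups.

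Ratios of counts inside one library do not depend on scaling between libraries. They were chosen after the values were seen, carry no test and are not corrected for exon length. *Klf15* has 2791 bases of exon, against 4815 for *Klf9*, 8131 for *Klf7* and 11243 for *Klf3*. The part of length in these ratios was not tested. *Klf15* counts per *Klf7* count were 1.38, 1.40 and 3.06 in YT-FF and 6.0, 14.7 and 6.11 in the libraries labelled YT-AKO. Per *Klf3* count they were 0.482, 0.482 and 1.08 against 1.87, 3.05 and 1.79, and per *Klf9* count 0.387, 0.454 and 0.504 against 0.686, 1.42 and 0.760. In these 3 ratios the groups did not overlap, and YT-AKO 2 was the highest. *Klf3* per *Klf13* did not overlap either (0.613, 0.724 and 0.531 against 0.486, 0.375 and 0.479), whereas *Klf2* per *Klf4* did (4.40, 4.06 and 3.62 against 3.13, 8.85 and 2.84). Of the summed KLF TPM, *Klf15* made up 8.44%, 9.68% and 12.8% in YT-FF and 18.0%, 18.5% and 18.8% in the libraries labelled YT-AKO.

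**Figure D5:**
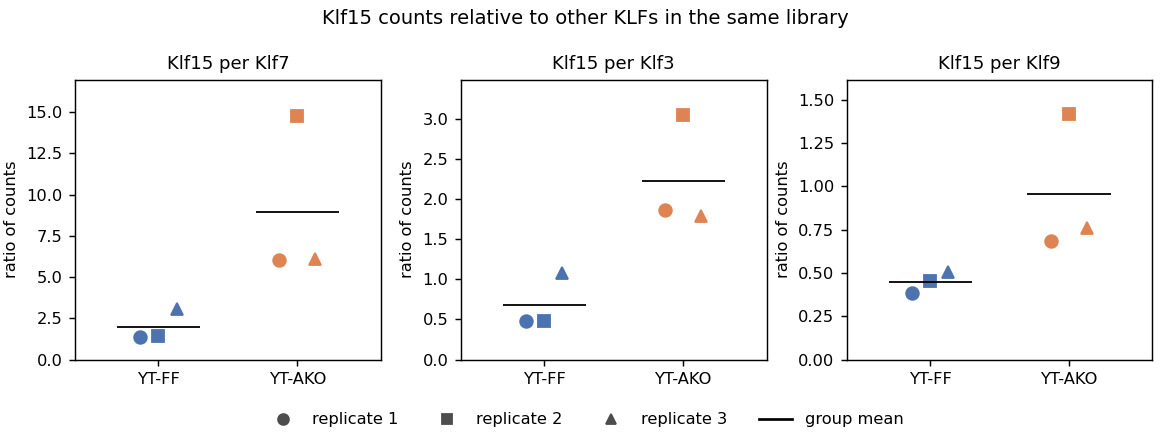
Counts of *Klf15* per count of *Klf7*, *Klf3* and *Klf9* within each library, not corrected for exon length (linear axes from 0). There is 1 point per library, 3 per group, and a line at each group mean. The libraries labelled YT-AKO lie above those of YT-FF in all 3 panels, and YT-AKO 2 lies highest.

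The members were also compared by the root mean square difference of their log2 CPM after centring each gene on its mean over the 6 libraries. The closest pair was *Klf4* and *Klf9* (0.0860), both lowest in YT-AKO 2. *Klf3* was nearest to *Klf7* (0.249), *Klf6* and *Klf11* were nearest to each other (0.183), *Klf13* to *Klf6* (0.187), *Klf5* to *Klf3* (0.284) and *Klf2* to *Klf11* (0.294). *Klf15* had no near neighbour, with *Klf2* nearest at 0.503, and *Klf7* and *Klf15* were farthest apart at 1.20. Without YT-AKO 2, *Klf4* and *Klf9* (0.0942) and *Klf3* and *Klf7* (0.102) were again nearest to each other and *Klf5* to *Klf3*, but the nearest of the other 5 changed, with *Klf2* nearest to *Klf6*, *Klf11* and *Klf13*.

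The rest of the KLF and SP family was listed at 17 genes, of which 16 were in the files and 9 passed the filter. Of these, 0 were called higher (0 also at an unadjusted p under 0.05, and 0 by DESeq2), beside 12.6% of all tested genes. Lower calls were 2, beside 9.01%. The median log2 fold change was −0.81 against −0.021 over all tested genes. Their median exon length was 4933 bases against 3888, and fold change fell with length over all tested genes. With the length correction 0 were called higher and 2 lower (5 lower at an unadjusted p under 0.05). That fit called 1692 higher and 763 lower of all 16807 tested genes. *Klf14*, an imprinted regulator known from fat depots, was counted 29, 45 and 79 times in the YT-FF libraries, and 0, 0 and 1 times in those labelled YT-AKO. Its summed 153 counts against 1 give a CPM ratio of 119, with a 95% counting interval from 21.1 to 4733. *Sp4*, a GC-box factor, went from 18.9 ± 3.76 to 6.76 ± 1.62 CPM (log2 fold change −1.48, adjusted p = 0.0181). The ubiquitous *Sp1* (−1.24, adjusted p = 0.0513), *Sp3* (−0.70) and *Sp2* (−0.64) were not called although their groups did not overlap. The same held for the repressors *Klf12* (−1.02) and *Klf8* (−0.81), while *Klf10* (0.35) and *Klf16* (−0.15) overlapped. Of the 9 tested genes, 7 did not overlap and were lower, beside 25.8% of all tested genes. In YT-AKO 2 *Sp1* was at 19.6 CPM, against 58.0 and 55.6 CPM in YT-AKO 1 and 3. Without YT-AKO 2, *Sp1* (−0.89, adjusted p = 0.00506) and *Sp3* (−0.42, adjusted p = 0.0303) were called. That fit called 1 of the rest of the family higher and 4 lower.

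Partners and known targets of KLFs were read beside them. Over all tested genes, 12.6% were called higher and 9.01% lower, and these shares stand beside each list. Among 11 cofactors, 2 were called higher and 4 lower. The lower ones were the histone acetyltransferases *Ep300* (log2 fold change −1.22, adjusted p = 0.0376) and *Crebbp* (−0.79, adjusted p = 0.0231) and the corepressors *Ncor1* (−0.78, adjusted p = 0.0395) and *Sin3a* (−0.73, adjusted p = 0.0377), while the corepressor genes *Sin3b* (0.77) and *Hdac3* (0.55) were higher. With the length correction 1 was higher and 0 lower (2 lower at an unadjusted p under 0.05). Without YT-AKO 2, *Ep300* was at −0.93 (adjusted p = 0.00888). The CtBP corepressor *Ctbp1*, a partner of KLF3, was at 0.43 (adjusted p = 0.0692), and at 0.38 without YT-AKO 2 (adjusted p = 0.0372). Of 15 genes known as KLF targets, 4 were higher and 2 lower, with a median of 0.34. The higher ones were the cell cycle inhibitor *Cdkn1a* (2.15, adjusted p = 0.0226), *Lgals3* (1.91), the adipolin gene *C1qtnf12* (43.9 ± 6.91 to 124 ± 13.8 CPM, adjusted p = 0.0146), which KLF3 is known to repress and KLF15 to activate, and the branched-chain aminotransferase *Bcat2* (1.16), a KLF15 target with 15.9% of its exon bases under another gene. The endothelial KLF2 target *Thbd* was among the lower ones (−0.78, adjusted p = 0.0435). The endothelial gene *Nos3*, on the same list, went the other way (0.51, adjusted p = 0.0662). It was not called although its groups did not overlap, and 32.3% of its exon bases lie under other genes.

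Among 14 adipogenic regulators, *Cebpb* rose from 116 ± 35.1 to 423 ± 117 CPM (log2 fold change 1.86, adjusted p = 0.0177). Of its exon bases, 20.7% lie under the antisense gene *Tmem189*. That made 1 of 14 higher, beside 12.6% of all tested genes. Lower calls were 0 (3 at an unadjusted p under 0.05, 1 by DESeq2), beside 9.01%, and the median of the list was −0.02. The same shares stand beside the lists that follow. Of 12 glucocorticoid-responsive genes, which share that input with *Klf9* and *Klf15*, 1 was called higher, the metallothionein *Mt1* (1.76, adjusted p = 0.0267), and 0 lower (0 at an unadjusted p under 0.05, 0 by DESeq2), with a median of 0.07. Of 20 immediate early genes, 19 were tested, 3 were higher (*Jund*, 1.76, *Atf3*, 1.51, and *Jun*, 1.18) and *Egr3* was lower (−1.18), with a median of 0.16, and none of the KLFs that belong to that class, *Klf2*, *Klf4* and *Klf6*, was called. The antisense gene *Gm11175* covers 52.6% of the exon bases of *Jund*, *Junos* 7.28% of those of *Jun* and *AC167363.2* 7.68% of those of *Cdkn1a*, so their counts are uncertain.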

How the data were processed

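scWAT RNA of 3 YT-FF mice and of 3 YT-AKO mice was sequenced as paired ends. The authors mapped reads to mm10 with HISAT2, and the deposited files hold raw counts per gene from featureCounts 2.0.1 (GENCODE vM25 exons, unstranded), with no normalization or filter. Of 55401 genes, 55141 were matched by identifier to a symbol in GENCODE vM21, and 260 were not.

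Counts were tested in R 4.3.3 with edgeR 4.0.16 (TMM, filterByExpr with minimum count 10 and minimum total 15, quasi-likelihood test, Benjamini-Hochberg adjustment over 16807 genes, calls at an adjusted p under 0.05). CPM used TMM-scaled library sizes and TPM the exon lengths in the files. The length correction fitted, in each library, a natural spline with 6 degrees of freedom to deviations in log expression over log2 length, and passed it to edgeR as an offset. Where a paragraph gives an adjusted p, it is from this edgeR test unless DESeq2 is named. The labels do not name separate animals, but the methods give 3 mice per group, and p-values measure the spread between these libraries. Counting intervals cover counting error only. The biological coefficient of variation was 0.288. The code was tested on simulated data.

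The members and the lists were chosen with earlier results of these data known. All 10 members are named. From each list the called genes with the largest log2 fold change, at most 4, are named, with all tested members of the rest of the family, and other genes were chosen after their values were seen. A gene that this rule names is not reported here. Alternatives were DESeq2 1.42.0, its size factors in edgeR, library totals, no filter, a replicate block, the length correction and leaving out each library. The member nearest to each KLF without YT-AKO 2 was added after seeing the data. Promoter sequences came from RefSeq for 9 of the 10 members, *Klf5* being the exception.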

Additional observations from a re-analysis of the deposited data

How the results depend on the processing

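Numbers of genes called are given for higher calls first and lower calls second. Of the gene values under each alternative, 381 kept direction and side of the threshold, 134 lost a call, 13 gained one and 18 turned sign. The replicate numbers do not pair the libraries (correlations of same-numbered deviations 0.126, -0.118 and -0.0893), and not every library correlated best with its own number. With the replicate block, 24 and 9 of all tested genes were called and 0 and 0 KLFs (1 and 2 at an unadjusted p under 0.05), and 0 in each list, that is 0 of the rest of the family, the adipogenic regulators, cofactors, targets, immediate early and glucocorticoid-responsive genes. With the replicate block and the length correction, all tested genes gave 59 and 22, the KLFs 0 and 0, the rest of the family 1 lower, and the other lists 0. With the length correction alone, 763 of all tested genes and 0 KLFs were lower, cofactors were 1 and 0, targets 1 lower and glucocorticoid-responsive genes 2 higher. On library totals, which put the median of all genes at -0.34, all genes gave 1137 and 2828, KLFs 0 higher, adipogenic regulators 2 lower, cofactors 0 higher and immediate early genes 2 lower. DESeq2 gave adipogenic regulators 3 and 1, immediate early genes 3 lower and glucocorticoid-responsive genes 2 higher. DESeq2 size factors gave 1 cofactor higher and 1 target lower. Without the filter, adipogenic regulators were 2 higher, cofactors 1 higher, immediate early genes 3 lower and glucocorticoid-responsive genes 3 higher. With the length correction and YT-AKO 2 left out, chosen after seeing the data, KLFs were 1 lower, the rest of the family 1 higher, cofactors 1 lower, targets 7 higher and glucocorticoid-responsive genes 2 higher.

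Leaving out each library in turn gave 0 to 2925 higher and 0 to 2424 lower of all tested genes (0 and 0 without YT-FF 1 and 0 and 2 without YT-FF 2, with 4665 and 4507 genes at an unadjusted p under 0.05 by edgeR), 0 to 1 and 0 to 2 KLFs, 0 to 1 and 0 to 4 of the rest of the family, 0 to 2 and 0 to 1 adipogenic regulators, 0 to 3 and 0 to 4 cofactors, 0 to 6 and 0 to 2 targets, 0 to 4 and 0 to 2 immediate early genes, and 0 to 2 glucocorticoid-responsive genes higher. The log2 fold change of *Klf2* turned to -0.22 on totals, -0.22 with the length correction, -0.22 with block and length and -0.32 with length and without YT-AKO 2, and ran from -0.076 to 0.27 with a library left out. *Klf4* turned to -0.20 on totals, -0.022 with length and -0.082 with block and length (-0.071 to 0.35 with a library left out), *Klf9* to 0.086 with length, 0.057 with block and length and 0.31 with length and without YT-AKO 2 (-0.22 to 0.24), *Klf11* to -0.27 on totals (-0.052 to 0.13), and *Klf16* ran from -0.34 to 0.038. RPKM in place of TPM changes each library by 1 factor, and it moved all 20 mean levels. That factor differed between the groups. *Klf2* was at 309 TPM and 81.5 RPKM in YT-FF, and at 209 TPM and 89.5 RPKM in the libraries labelled YT-AKO. The causes of the changed calls and signs were not tested. The counts of *Klf5* (8 to 52 per library), *Klf12* (8 to 49 per library) and *Klf14* limit what can be seen for these genes.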
